A study of Mus musculus with 3 samples.

Results

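Active TBX5-bound regions at a middle distance from transcription starts, outside regions of the related factor TBX3, were examined in the embryonic mouse heart. The regions are peaks of TBX5 chromatin immunoprecipitation and sequencing (ChIP-seq) that the authors classed as active and non-promoter, that overlapped no TBX3 region, and whose summit (the position of highest signal) lay over 10 kb and at most 50 kb from the assigned transcription start. The rule found 1944 of the 12436 peaks (15.6%, exact 95% interval 15 to 16.3). They made up 43.3% of the 4488 active non-promoter peaks without TBX3. These 1944 are called mid-range regions here, after the distance to the start that the authors' table assigns. By RefSeq, 209 of the 1853 that could be compared (11.3%) had a start within 10 kb, 195 of them of a long non-coding RNA (lncRNA) and 14 of a protein-coding gene, and 59 had one within 2 kb. All chromatin came from whole hearts of CD-1 mice, an outbred stock, at E14.5, and the labels name no transgene or treatment. The study compared 2 biological replicates precipitated with 5 µg of an anti-TBX5 antibody against 1 input sample. Peaks were called once on the pooled replicates, so each region has a single value, and no spread between replicates and no test over samples can be had. A whole heart mixes muscle, endothelium, epicardium, valve and nerve cells, and the files hold no value per cell type and no expression with which to check the tissue label.

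TBX5 is a T-box transcription factor that binds DNA with GATA4 and NKX2-5, and heterozygous loss of it causes Holt-Oram syndrome, with defects of heart septation, conduction and the forelimb. TBX3 is a T-box factor that acts mainly as a repressor in the conduction system and recognises a similar motif. Enhancers are stretches of DNA away from the promoter that raise transcription of a gene, often a distant one. H3K4me1 marks enhancers, H3K27ac and H3K9ac mark active regulatory DNA, H3K4me3 marks promoters, and H3K9me3 marks silenced chromatin. In these files every peak of the active non-promoter class overlapped H3K27ac and none overlapped H3K27me3, so those marks belong to the rule. H3K4me1, H3K4me3, H3K9ac, H3K9me3, the side of the start, the position in genes and the enrichment do not.

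Sequence could be shown for the mid-range regions that fall at a start in the RefSeq promoter table (build GRCm38.p6, the assembly that mm10 names), which gives 300 bases around each start. The summits of 14 of 1853 mid-range regions (0.756%) lay in such a window, 13 of them at starts of lncRNAs and 1 at a start of the protein-coding gene Ptpa. Their median fold enrichment was 6.80, 9 overlapped H3K4me3 and 10 overlapped H3K9ac. Of these, 3 of the stronger ones are printed because they hold different motifs, each cut to the overlap of peak and window, 5′ to 3′ on the strand of the lncRNA. Capitals mark every match, on either strand, to the T-box motifs AGGTGTGA, GGTGTGA and AGGTGT, the GATA motif AGATAA, the NKX2-5 motif AAGTGG, the TEAD motif CATTCC, the MEIS motif TGACAG, the AP-1 motif TGACTCA, the E-box CAGCTG, the estrogen-related receptor motif TGACCTTNA and the MEF2 box. AGGTGTGA contains both shorter T-box motifs. The stretch printed for Gm30381 near Add3 is chr19:53128453-53128752 (+), that of Gm11476 near Snai1 chr2:167553062-167553313 (+) and that of Lincred2 near Slc2a1 chr4:119050756-119051055 (+).
Gm30381: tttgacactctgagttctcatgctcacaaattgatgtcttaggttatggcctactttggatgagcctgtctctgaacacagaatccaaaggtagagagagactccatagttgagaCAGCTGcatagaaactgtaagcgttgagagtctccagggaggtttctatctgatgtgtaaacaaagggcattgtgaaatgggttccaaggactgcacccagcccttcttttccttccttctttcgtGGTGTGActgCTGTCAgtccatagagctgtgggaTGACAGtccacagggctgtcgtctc
Gm11476: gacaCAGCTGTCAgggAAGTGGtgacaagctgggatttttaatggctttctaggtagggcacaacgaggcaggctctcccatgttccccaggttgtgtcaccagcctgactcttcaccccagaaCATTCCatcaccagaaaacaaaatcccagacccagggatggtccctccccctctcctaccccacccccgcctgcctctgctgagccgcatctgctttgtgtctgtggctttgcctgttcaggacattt
Lincred2: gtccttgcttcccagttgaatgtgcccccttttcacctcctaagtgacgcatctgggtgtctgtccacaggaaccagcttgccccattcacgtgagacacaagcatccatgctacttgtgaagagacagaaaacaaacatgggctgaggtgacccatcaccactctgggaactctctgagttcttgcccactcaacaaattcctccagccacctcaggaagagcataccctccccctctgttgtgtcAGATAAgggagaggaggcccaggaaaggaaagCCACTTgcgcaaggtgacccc

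The Gm30381 region, 11729 bp upstream of the start of Add3, had 15.2-fold enrichment (95% Poisson interval 11.5 to 19.6) from a summit pileup of 57 fragments. Its GGTGTGA began 20 bases before the summit, and TGACAG lay 10 bases before the summit on the other strand and 14 bases after it. The Gm11476 region had 13.5-fold enrichment (11.1 to 16.1), and CAGCTG began 8 bases before its summit, TGACAG on the other strand 5 bases before it and AAGTGG 4 bases after it. AGATAA stood 111 bases after the summit of the Lincred2 region (8.92-fold, 6.70 to 11.6), which held no T-box motif.

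Over the whole windows of 300 bases, TGACAG was found in 7 of 14 mid-range windows against 19.2% of all 32817 RefSeq start windows, and CAGCTG in 7 of 14 against 16.3%. The exact 95% interval of 7 of 14 is 23.04% to 76.96%, which lies above both shares. AAGTGG and CATTCC were each found in 5 of 14 (12.76% to 64.86%), against 16.9% and 14.7%, which that interval includes. Of the 14 windows, 13 are at lncRNA starts, and the set of all windows was not matched to them for gene type. These differences were not tested. One of the shorter T-box motifs was found in 2 of 14 windows (exact 95% interval 1.78% to 42.8%), against 16.1% of all windows. AGGTGTGA, TGACCTTNA and the MEF2 box were in 0 of 14 windows, which allows a share of up to 23.2% by the same interval, and in 1.27%, 1.28% and 0.165% of all windows. AGATAA was in 1 of 14 windows against 11.2%, and TGACTCA in 1 of 14 against 5.20%. A match is a run of letters and not a measured binding site, and 14 windows chosen by position do not stand for the other mid-range regions, whose sequence was not used here.

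The strongest mid-range regions lay near genes of many kinds, of which Gja5 is the best known in the heart. Fold enrichment, as the authors deposited it, divides the pooled ChIP signal at the summit by the local background. The interval beside it covers the counting error of the pileup only. The strongest, at chr15:38169672-38170243, lay 49295 bp upstream of Odf1, a gene of the sperm tail, with 85.6-fold enrichment (75.7 to 96.5) from 266 fragments. The next lay 12912 bp upstream of Myb, a transcription factor of blood progenitors (chr10:21173669-21174085), with 74.7-fold (64.8 to 85.7) from 203 fragments. The third (chr6:148693244-148693766), had 67.7-fold (57.9 to 78.7), with the start of 4930528G23Rik 15562 bp away and the nearest protein-coding gene, Ipo8, 77121 bp away. These 3 overlapped H3K27ac in 1 of its 2 region files and did not overlap H3K9ac.

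Regions in or near Tns1, Hltf, Slc35b3 and Gja5 followed. Tns1, which encodes the focal adhesion protein tensin, held a region (chr1:73948511-73949204) with 64.2-fold enrichment (56.6 to 72.6). Hltf, a helicase-like chromatin factor, held one (chr3:20082122-20082604) with 63.2-fold (54.7 to 72.6). Slc35b3, a Golgi sulfate-donor transporter, had one 40772 bp upstream with 62.6-fold (53.6 to 72.7), at chr13:39001341-39001900. The interval of the Odf1 region lay above those of Tns1, Hltf and Slc35b3, while the intervals of neighbours in this order overlapped. Then came Gja5, which encodes connexin 40 of the atria and conduction system, whose region lay 9458 bp beyond the gene (chr3:97062788-97063363), with 56.9-fold (50.2 to 64.4).

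The remaining 8 of the 15 strongest regions ran from 55.7-fold down to 43.9-fold. They lay in or near Abca4 (55.7-fold), Daam1 (50.5), Erc2 (48.7), Stk39 (47.8), Rapgef4 (45.3), Lmntd1 (44.6), Lman1 (44.2) and Ccdc158 (43.9). Rapgef4 encodes the cyclic AMP sensor EPAC2, and Daam1 a formin of non-canonical Wnt signalling. Of the 15 regions, 9 lay in a protein-coding gene body, 8 upstream of the assigned start, 12 overlapped H3K27ac in both region files, 4 overlapped H3K9ac and 3 overlapped H3K4me3. All 15 overlapped H3K4me1.

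**Figure D1:**
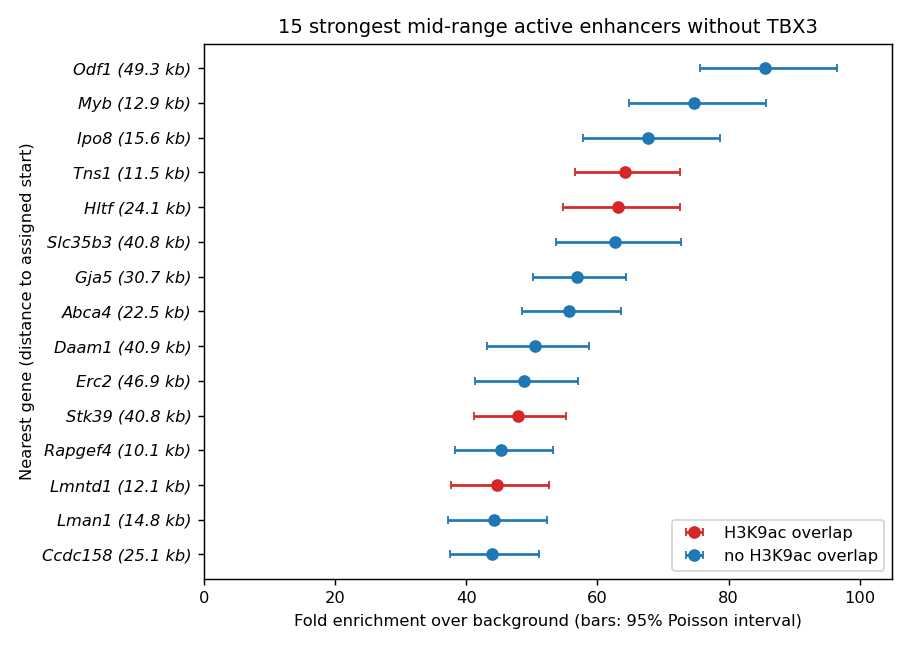
Fold enrichment of the 15 strongest mid-range regions (points) with the exact 95% Poisson interval of the pileup (bars), by nearest gene and distance to the assigned start in kb. Red points overlap H3K9ac and blue points do not. Intervals of neighbours overlap from Odf1 at 85.6 to Ccdc158 at 43.9, and 4 of 15 are red.

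Most mid-range regions were far weaker. The median fold was 6.18 (95% interval of the median 6.01 to 6.41), with quartiles of 4.80 and 9.15 and a range of 2.56 to 85.6. The median pileup was 22 fragments (range 9 to 266), the median local background 2.83 and the median width 259.5 bp. Fold reached at least 20 in 114 mid-range regions (5.86%, exact interval 4.86 to 7.003), against 4.07% of all peaks. Without TBX3, other active non-promoter peaks reached it in 6.03% up to 10 kb, 7.25% from 50 to 100 kb and 8.19% beyond. With TBX3 at the same distance it was 3.95%. The intervals of these groups overlapped the mid-range one. A −log10 q of at least 10 was reached by 963 (49.5%, 47.3 to 51.8), against 41.5% of all peaks. In the same other groups it was reached by 46.2%, 47.7%, 55.1% and, with TBX3, 50.0%. The median fold of all peaks was 5.67 and their median pileup was also 22, so the mid-range median was 1.09 times that of all peaks in fold and 1.00 times in pileup.

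Enrichment varied little with distance inside the limits. The median fold was 6.30 for the 744 regions from 10 to 20 kb, 6.09 for the 522 from 20 to 30 kb, 6.10 for the 374 from 30 to 40 kb and 6.20 for the 304 from 40 to 50 kb. Across the other active non-promoter peaks without TBX3 it was 5.92 (5.72 to 6.12) up to 10 kb, 6.19 (5.92 to 6.44) from 50 to 100 kb and 6.85 (6.64 to 7.25) beyond 100 kb. The interval beyond 100 kb lay above that of the mid-range regions. The local background there was lower, 2.26 against 2.83, and the pileup was 23 against 22, and the part of the background in the difference was not tested. Active non-promoter peaks that did overlap TBX3, at the same 10 to 50 kb, had a median fold of 5.92 (5.67 to 6.20) with a pileup of 24 and a background of 2.97.

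**Figure D2:**
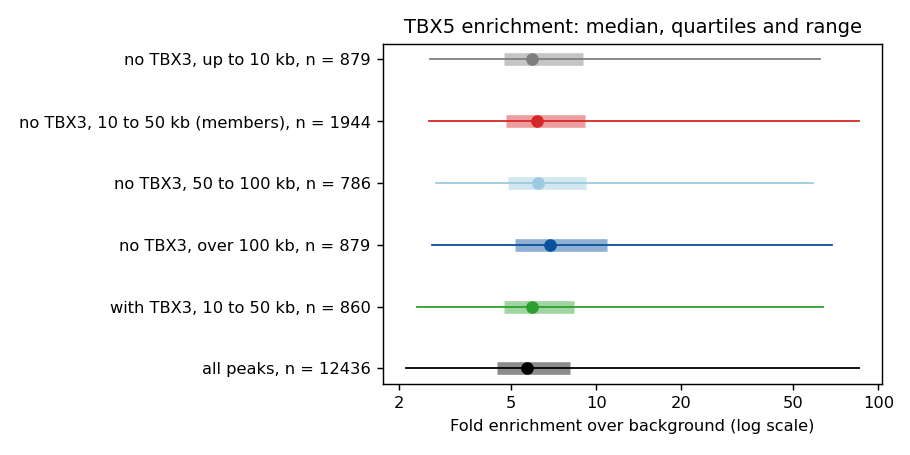
Fold enrichment (log axis) of active non-promoter TBX5 peaks by distance to the start and TBX3 overlap, and of all peaks. Points are medians, thick bars the quartiles and thin lines the range. The mid-range regions (red, n = 1944) have a median of 6.18 and quartiles of 4.80 and 9.15, which overlap the quartiles of every other group.

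The regions sat at the distance limits as follows, given as a description of the edges. Just outside 10 kb lay a region near Ripply2, 9980 bp from the start, with 7.64-fold enrichment (5.49 to 10.4), and one in Helq at 9986 bp with 6.44-fold (3.78 to 10.4). Just inside lay one in Soga1 at 10006 bp with 6.16-fold (4.45 to 8.34) and one in Anxa6 at 10015 bp with 4.41-fold (2.74 to 6.77). Just inside 50 kb lay one in Dtnbp1 at 49944 bp with 4.18-fold (2.46 to 6.73) and one in Add3 at 49982 bp with 3.75-fold (2.24 to 5.95). Just outside lay one in Tnrc6a at 50020 bp with 14.1-fold (10.6 to 18.4) and one upstream of Kdm7a at 50079 bp with 5.00-fold (3.30 to 7.29).

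Nearly all mid-range regions carried the enhancer mark, and fewer carried the promoter mark. H3K4me1 was present at 1866 of 1944 (96.0%, 95.02 to 96.8). H3K4me3 was present at 267 (13.7%, 12.2 to 15.3), H3K9ac at 812 (41.8%, 39.6 to 44.0) and H3K9me3 at 2 (0.103%). H3K27ac, which the class requires in at least 1 of its region files, stood in both files at 1544 (79.4%, 77.6 to 81.2). Over all peaks, promoter-class ones included, H3K4me1 stood at 72.3%, H3K4me3 at 31.8% and H3K9ac at 46.0%. H3K9me3 stood at 0.241% of all peaks and H3K27ac in both files at 62.5%. The mid-range share of H3K9ac was thus somewhat below that of all peaks. The largest mark group, with neither H3K9ac nor H3K4me3, held 1102 regions (56.7%). H3K9ac without H3K4me3 was present at 575 (29.6%), both marks at 237 (12.2%), and H3K4me3 without H3K9ac at 30.

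**Figure D3:**
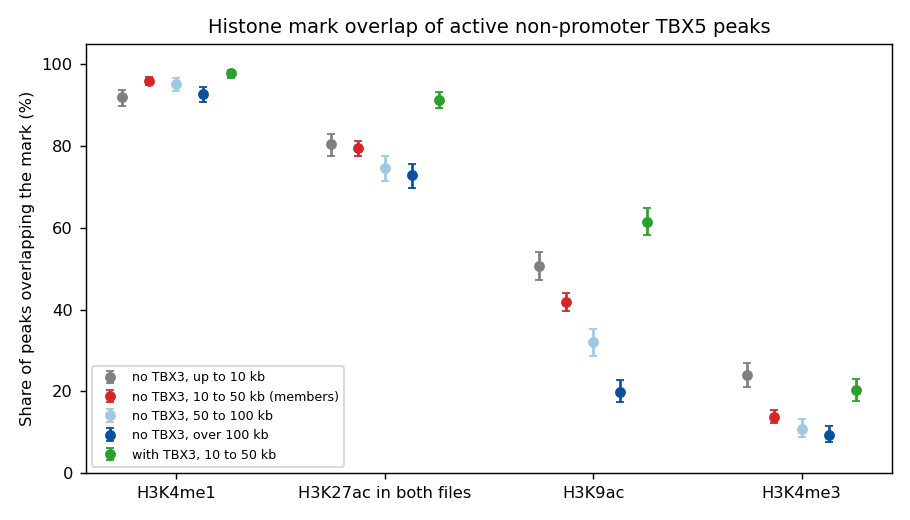
Share of active non-promoter TBX5 peaks that overlap each mark (percent, points) with exact 95% intervals (bars), by distance and TBX3 overlap. H3K9ac falls from 50.6% up to 10 kb to 41.8% in the mid-range regions (red) and 19.9% beyond 100 kb, and stands at 61.5% in peaks of the same distance that overlap TBX3 (green).

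In percentage points, H3K9ac differed more along the distance scale than the other marks did. Without TBX3, it was present at 50.6% of peaks up to 10 kb (47.3 to 54.0), 41.8% of mid-range regions, 31.9% from 50 to 100 kb (28.7 to 35.3) and 19.9% beyond 100 kb (17.3 to 22.7), with no overlap between these intervals. Within the mid-range limits the steps were small, at 42.2% for 10 to 20 kb, 44.6% for 20 to 30 kb, 39.8% for 30 to 40 kb and 38.2% for 40 to 50 kb, and their intervals overlapped. Peaks with TBX3 overlap at the same distance had H3K9ac at 61.5% (58.2 to 64.8) and H3K27ac in both files at 91.4% (89.3 to 93.2), both above the mid-range intervals. H3K4me3 stood at 23.9% up to 10 kb, 13.7% in the mid-range regions, 10.8% from 50 to 100 kb, 9.33% beyond 100 kb and 20.2% with TBX3. H3K4me1 in either file lay between 91.9% and 97.8% in every group. In both files it stood at 75.4% up to 10 kb, 80.7% in the mid-range regions, 73.9% from 50 to 100 kb, 62.9% beyond 100 kb and 90.2% with TBX3. The sources used here give neither the tissue nor the stage of the mark and TBX3 regions, so these shares set TBX5 in these hearts beside regions of unknown origin.

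H3K9ac was more frequent at weaker mid-range regions. In 5 groups of rising fold, it was present at 53.1%, 47.0%, 36.9%, 35.7% and 36.3% of mid-range regions. Peaks with TBX3 overlap at the same distance had 66.3%, 61.8%, 59.2%, 63.9% and 55.2% in the same fold groups, above the mid-range share in each of the 5. Peaks beyond 100 kb without TBX3 had 33.1%, 16.7%, 19.1%, 16.6% and 18.4%, below the mid-range share in each. Peaks up to 10 kb lay above it in 4 groups and at 34.3% in the group of highest fold. Over all peaks the share fell from 70.6% to 29.5% across these groups.

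**Figure D4:**
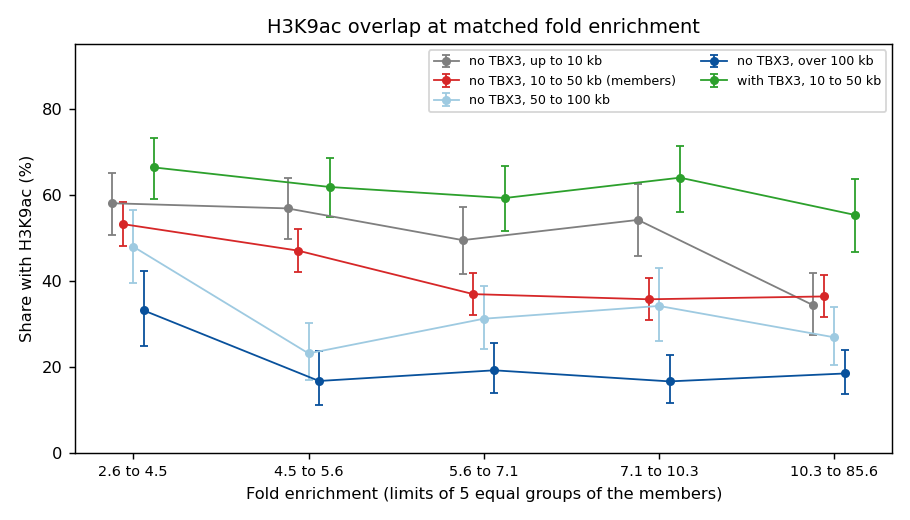
Share of peaks with H3K9ac (percent) against fold enrichment, in 5 groups whose limits split the mid-range regions evenly, with exact 95% intervals. The red line (mid-range regions) runs from 53.1% to 36.3%, below the green line (TBX3 overlap, 66.3% to 55.2%) and above the dark blue line (beyond 100 kb, 33.1% to 18.4%) in every group.

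Mid-range regions with and without H3K9ac had the same median pileup of 22 and differed in other features. The 812 with the mark had a median fold of 5.73 over a background of 2.84, and the 1132 without it 6.57 over 2.35. The part of the background in this difference of fold was not tested. With H3K9ac, H3K27ac stood in both files at 91.6% and H3K4me3 at 29.2%. Without it these shares were 70.7% and 2.65%. Another TBX5 summit lay within 10 kb of 48.2% of the regions with H3K9ac (44.7 to 51.7) and of 32.2% of those without (29.5 to 35.1). The 78 regions that lacked H3K4me1 had H3K4me3 at 29.5% (19.7 to 40.9), against 13.1% of the rest.

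Most mid-range regions lay inside genes. Of the 1944, 803 (41.3%) were upstream of the assigned start and 1141 downstream. Upstream shares were 44.1% over all peaks and 43.4% for peaks with TBX3 at the same distance. The summit lay in a protein-coding gene body at 1267 (65.2%, 63.0 to 67.3), against 58.8% of all peaks and 61.6% of peaks with TBX3 at the same distance. Without TBX3, the share was 70.6% up to 10 kb, 56.1% from 50 to 100 kb and 34.7% beyond 100 kb. Of the mid-range regions in a gene body, 29.3% were upstream of the assigned start, against 63.8% of those outside. A summit in a gene body lies downstream of that gene's first start, so this contrast is in part fixed by position. Regions outside gene bodies reached a fold of 20 in 7.83% of cases (5.92 to 10.1) and those inside in 4.81% (3.70 to 6.14). The RefSeq table used gives gene bodies without exons, so exon, intron and UTR positions are not stated.

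The start implied by the distance could be matched to a RefSeq start within 100 bp for 1108 of 1853 mid-range regions (59.8%), and 787 of these (71.0%) belonged to the protein-coding gene nearest by body. A promoter-class TBX5 summit lay within 2 kb of the matched start for 222 of the 1108 (20.04%, 17.7 to 22.5). Over all protein-coding starts, bound or not and each counted once, it was 2567 of 21044 (12.2%). The matched starts also include those of lncRNAs, so the sets differ in gene type. Over the matched starts of all peaks, which include the promoter-class peaks themselves, it was 3149 of 7481 (42.1%). The share was 27.1% for peaks up to 10 kb, 18.5% from 50 to 100 kb, 17.5% beyond 100 kb and 27.3% for peaks with TBX3 at the same distance. It was 24.7% (20.8 to 29.0) at starts assigned to mid-range regions with H3K9ac and 16.8% (14.0 to 19.9) at those without. Starts assigned to several regions were counted once for each.

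Mid-range regions were often close to further TBX5 summits. Another summit of any class lay within 10 kb of 756 (38.9%, 36.7 to 41.1), at a median gap of 2759 bp. The nearest was another mid-range region in 430 of the 756 (56.9%), overlapped TBX3 in 204 (26.98%) and was a poised peak (enhancer mark without H3K27ac) in 59. H3K9ac stood at 51.7% of regions with such a neighbour and 35.4% of those without. Up to 10 kb from a start, 47.8% of the peaks without TBX3 had a neighbour, from 50 to 100 kb 34.1% and beyond 100 kb 30.5%. The share was 41.2% for peaks with TBX3 at the same distance as the mid-range regions, and 32.9% over all peaks. The most crowded region lay near Pxylp1, a xylosyl phosphatase gene (chr9:96878608-96878782), with 5 other summits within 10 kb and 3.66-fold enrichment (2.07 to 6.07). Another 14 had 4 such neighbours, among them a 31.7-fold region (26.4 to 37.9) in Sh3bgr, and, in Myocd, regions of 21.5-fold and 8.66-fold. Of these 15 crowded regions, the one in Sh3bgr with 31.7-fold was alone in lacking H3K9ac. Pxylp1 and Sh3bgr were named after their values were seen.

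The mid-range regions had 1421 nearest protein-coding genes, which is 6.57% of the 21627 protein-coding genes examined. These genes were long, with a median body of 71968 bp against 17330 bp for all protein-coding genes. A long body offers more positions over 10 kb from a start, so the rule itself favours long genes. Lengths were not measured for the nearest genes of other peak groups, so the length is not a finding about the mid-range regions. Of these genes 1065 had 1 mid-range region, 245 had 2, 77 had 3, 19 had 4, 10 had 5, 3 had 6 and 2 had 7. Svil, which encodes the actin-binding protein supervillin, had 7, all in the gene body, from 3.05-fold to 30.1-fold. Add3, which encodes adducin of the membrane skeleton, also had 7, spread over 68.1 kb, of which 4 lay in the gene and 4 overlapped H3K9ac. The strongest, 14547 bp upstream, had 24.9-fold enrichment (20.6 to 30.0), and the Gm30381 region, 11729 bp upstream, was the next at 15.2-fold. Daam1 had 6 over 157.3 kb, with its strongest at 50.5-fold (43.2 to 58.7) and the next at 14.9-fold (11.3 to 19.3). Plcb4, a phospholipase C gene, had 6 with a highest fold of 19.5, and Pakap had 6 with a highest fold of 14.1.

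Gene lists of the heart and of other cell types were read against the 6.57% of all protein-coding genes. Of 18 lists, 15 had a higher share of genes nearest to a mid-range region, and 92 of the 419 distinct list genes were nearest to one (22.0%). Among those 15, the intervals of the Notch, Hippo, septation, endothelium, epicardium and smooth muscle lists included 6.57%. The lists were not matched to other genes for length. As a second reading, the mid-range regions near a list were set against all TBX5 peaks nearest to its genes, which for the whole series is 15.6%. By that reading Wnt signalling stood at 27.4% of 62 peaks (16.9 to 40.2), and the intervals of the other 17 lists included 15.6%. Daam1 alone gave 6 of the 17 mid-range regions and 12 of the 62 peaks of the Wnt list. The interval treats peaks of 1 gene as independent, so the Wnt share leans on that locus. No test was run on any list, and several genes stand in more than one.

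**Figure D5:**
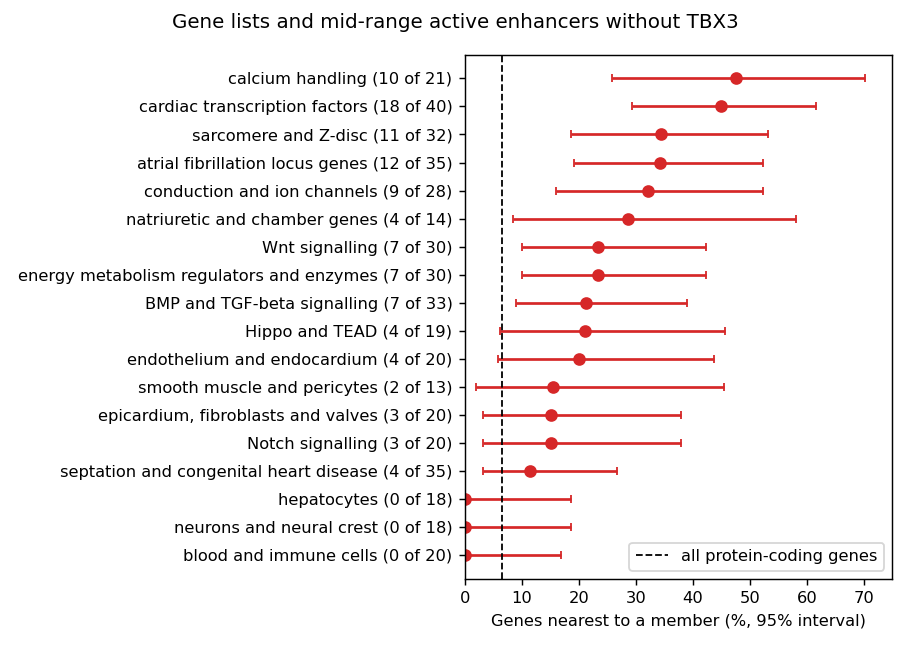
Share of the genes of each list that are nearest to at least 1 mid-range region (percent, points) with exact 95% intervals (bars). The dashed line is the 6.57% of all protein-coding genes. Calcium handling (10 of 21) and cardiac transcription factors (18 of 40) have the highest shares, and blood, neuron and hepatocyte lists have 0. The bars of the lists with 0 reach past the dashed line. Those of the Notch, Hippo, septation, endothelium, epicardium and smooth muscle lists also include it.

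Among cardiac transcription factors, 18 of 40 genes were nearest to 28 mid-range regions, 15 of them with H3K9ac, at a median fold of 7.16. These were 13.3% of the 210 TBX5 peaks nearest to the list (9.05 to 18.7), close to the 15.6% of all peaks. Irx5, an Iroquois homeobox gene of ventricular repolarisation, had the strongest, 40.4-fold (33.7 to 48.1), at chr8:92323659-92324160, 33843 bp from the gene, with the start of Crnde assigned to it. Ankrd1, a cofactor induced by load in heart muscle, had one 47834 bp upstream (chr19:36167271-36167884) with 30.8-fold enrichment (25.0 to 37.6). Myocd, the cofactor myocardin that drives muscle genes with SRF, had 5, the strongest 21.5-fold (16.8 to 27.2), at chr11:65205287-65205682.

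Weaker regions lay near other factors of this list. Prdm16 had one of 19.2-fold (15.4 to 23.7), Prox1 one of 17.2-fold (12.7 to 22.9) and one of 9.45-fold, and Tbx18 one of 13.8-fold (10.0 to 18.5). Nkx2-5, the homeobox partner of TBX5, had regions of 8.89-fold (6.20 to 12.4) and 6.67-fold (4.33 to 9.88), both with H3K9ac. Gata6 had one of 8.89-fold (6.20 to 12.4). Tbx5 itself had 1, in its own gene body 11324 bp upstream of the assigned start, with 3.40-fold enrichment (1.88 to 5.74) from 12 fragments, among the weakest of the list.

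Conduction and ion channel genes had 15 mid-range regions at 9 of 28 genes (32.1%), with a median fold of 7.05, and 5 of the 15 overlapped H3K9ac. Kcnj5 and Kcnj3 encode the subunits of the acetylcholine-gated potassium channel of the atria. Kcnj5 had a region 508 bp beyond the gene with 26.7-fold enrichment (22.2 to 31.9), at chr9:32313657-32314528. Kcnj3 had one in its body with 16.0-fold (11.9 to 21.1), at chr2:55480323-55480604. Neither these 2 nor the Gja5 region overlapped H3K9ac. Hcn4, the main pacemaker channel, had a pair of weaker regions in its body, 5.35-fold (3.59 to 7.69) and 5.30-fold (3.44 to 7.84), and both overlapped H3K9ac. The 15 regions were 23.4% of the 64 peaks nearest to the list (13.8 to 35.7).

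Calcium handling genes had the highest share, 10 of 21 (47.6%), with 19 mid-range regions and a median fold of 5.67, and the list also had a median body of 155819 bp. They were 23.2% of the 82 peaks nearest to the list (14.6 to 33.8). Ryr2, the release channel of the sarcoplasmic reticulum, had a region 26754 bp upstream with 36.2-fold enrichment (30.9 to 42.2), at chr13:12133422-12133987 and one of 4.55-fold (2.90 to 6.85) next to it. Jph2, which joins the plasma membrane to the reticulum, had one of 13.6-fold (10.2 to 17.8) in its body. Slc8a1, the sodium-calcium exchanger, had one of 11.5-fold (8.27 to 15.6) 43361 bp upstream. Cacna1c, the L-type calcium channel, had 4, from 5.73-fold to 9.93-fold. Casq2, the calcium store protein of the reticulum, had 2, at 5.23-fold and 4.60-fold. H3K9ac overlapped 11 of the 19.

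Sarcomere and Z-disc genes had weak regions with frequent H3K9ac. Of 32 genes 11 (34.4%) were nearest to 16 mid-range regions, with a median fold of 5.27 and a highest of 10.9, and 13 of the 16 overlapped H3K9ac. They were 18.6% of the 86 peaks nearest to the list (11.02 to 28.4). Actn2, the Z-disc crosslinker, had one of 10.9-fold (7.60 to 15.2), at chr13:12313649-12314092, and Lmod2, a thin-filament nucleator, had another of 10.9-fold (chr6:24585597-24585827). Csrp3, a stretch sensor of the Z-disc, had one of 8.92-fold (5.99 to 12.8). Ttn, the giant elastic protein, held 4 within its body between 76806319 and 76808630 on chromosome 2, from 4.19-fold to 5.49-fold, all with H3K9ac. Myh7, the slow myosin heavy chain, had one of 4.88-fold (3.30 to 6.98) 10047 bp upstream, just inside the limit. Across the 3 muscle lists the share with H3K9ac was thus 13 of 16 for the sarcomere, 11 of 19 for calcium handling and 5 of 15 for conduction, a difference that was not tested.

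Signalling lists had smaller shares of genes than the muscle lists, while their shares of peaks ran from 6.52% for Notch to 27.4% for Wnt. Wnt genes had 17 mid-range regions at 7 of 30 genes (23.3%), of which Daam1 had 6 and Ror2, a receptor of non-canonical Wnt ligands, had 4 with a highest fold of 12.8 (9.51 to 16.9). Wnt11, a non-canonical ligand, had one of 14.0-fold (11.4 to 17.0), and Dkk3 one of 13.7-fold (10.1 to 18.3). BMP and TGF-beta genes had 10 regions at 7 of 33 genes (21.2%), led by Bmp7 with 13.3-fold (9.57 to 17.96), the receptor gene Tgfbr1 with 9.94-fold (6.81 to 14.1) and the BMP antagonist Nog with 7.54-fold (4.63 to 11.7). Notch genes had 3 regions at 3 of 20 genes. The nearest genes were the Notch coactivator gene Maml3 (10.2-fold, 7.46 to 13.5), the ligand gene Dll1 (8.33-fold, 5.74 to 11.7) and Maml2 (3.53-fold, 2.22 to 5.36). The Dll1 region lay 81578 bp from that gene, with the start of Gm5091, 44993 bp away, assigned to it. The interval of the Notch share of peaks, over 46 peaks, was 1.37% to 17.9%, and BMP and TGF-beta stood at 11.4% of 88 peaks (5.59 to 19.9). Hippo genes had 4 at 4 of 19, near Wwtr1, which encodes the coactivator TAZ (8.89-fold, 6.20 to 12.4), Tead1 (7.18-fold, 5.53 to 9.18), Vgll4 (5.15-fold, 3.43 to 7.46) and Stk4.

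Metabolic and disease lists followed. Energy metabolism genes had 11 regions at 7 of 30 genes (23.3%). Esrrg, an estrogen-related receptor, had the strongest, 13.7-fold (9.69 to 19.0), followed by Ppara, a receptor that drives fatty acid oxidation, with 12.6-fold (9.55 to 16.3), and the coactivator gene Ppargc1b with 7.29-fold (4.89 to 10.5). Natriuretic and chamber genes had 5 regions at 4 of 14, led by Kcnj3 and Dkk3, then Sbk2 (12.3-fold, 8.46 to 17.3). The list named for septation and congenital heart disease had 9 regions at 4 of 35 genes (11.4%). Its strongest region, 24.2-fold (19.2 to 30.0), lay at the titin splicing factor gene Rbm20, at chr19:53823943-53824281. Rbm20 stands also on the atrial fibrillation list, and its place on this one does not make it a gene of congenital defects. The chromatin remodeller gene Chd7 followed with 17.6-fold (14.1 to 21.8), and the elastin gene Eln with 10.8-fold (7.58 to 14.8). Genes of atrial fibrillation loci had 23 regions at 12 of 35 (34.3%), led by Gja5, Kcnj5 and Rbm20, and these were 23.5% of 98 peaks (15.5 to 33.1). Energy metabolism genes stood at 16.2% of 68 peaks (8.36 to 27.1).

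Marker lists of other cell types held few genes nearest to a mid-range region. The interval of each of these lists included the 6.57% of all protein-coding genes, so neither an excess nor a lack can be read from them. Endothelial and endocardial genes had 4 regions at 4 of 20 genes, the strongest at Pecam1 and Tek with 6.84-fold each (4.69 to 9.67) and at Emcn with 6.50-fold (4.26 to 9.55). Epicardial, fibroblast and valve genes had 3 at 3 of 20, with Dcn (23.0-fold, 17.4 to 29.7), Tbx18 and Snai1 as nearest genes. The last is the Gm11476 region, and none of the 3 overlapped H3K9ac. The Dcn region lay 42508 bp from that gene, and the start assigned to the region, 13514 bp away, matched no RefSeq start. Smooth muscle and pericyte genes had 7 at 2 of 13 genes, Abcc9 and Myocd, with 32.7-fold (27.2 to 38.9) and 18.6-fold (14.53 to 23.4) at Abcc9, which encodes a potassium channel subunit also made in heart muscle. Blood (0 of 20 genes), neuron and neural crest (0 of 18) and hepatocyte (0 of 18) lists had no nearest mid-range region, which allows shares of up to 16.8%, 18.5% and 18.5%. The genes of those 3 lists were nearest to 9, 14 and 2 TBX5 peaks of any class.

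By chromosome, mid-range regions made up between 11.2% of the peaks on X (17 of 152) and 20.7% on chromosome 14 (107 of 517). Chromosomes 1 and 2 held the most, 153 each.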

How the data were processed

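TBX5 ChIP-seq was measured in 2 replicates and 1 input sample of E14.5 CD-1 hearts. The submitters' processing notes name the mm10 build and the tools Bowtie2, SAMtools, MACS2 and ChIPseeker, without versions. The authors' fold is a ratio, the pooled ChIP signal at the summit over its local background. The −log10 p and −log10 q, and the score (10 times −log10 q truncated), are deposited values of the same call. Distances, classes and overlaps with histone mark regions (from ENCODE) and TBX3 regions are columns of a deposited table, and H3K4me1, H3K4me3 and H3K27ac have 2 region files each, of which either counted.

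No source used here gives read depth. The pileup and background were solved from fold, (pileup + 1)/(background + 1), and −log10 p as a Poisson tail, a step tested on simulated peaks. For all 12436 peaks a whole-number pileup met −log10 p to within 0.0005. Fold intervals are exact 95% Poisson intervals of the pileup with the background fixed. Shares carry exact Clopper-Pearson intervals, and those of medians are order statistics. All cover counting error only, treat peaks as independent, and say nothing of the spread between hearts.

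Gene bodies, starts and sequences come from RefSeq tables of GRCm38.p6, and the nearest gene is named by position alone. The start table has no rows for 1 chromosome, which leaves 1853 mid-range regions for shares that need starts. Of 1487 pairs of overlapping start windows on opposite strands, 1487 had matching letters. All genes of the 18 lists matched a symbol (0 unmatched). Named were the 15 regions of highest fold, the strongest region and next 2 genes of each list, the 5 genes with the most regions, and 2 regions on either side of each distance limit; other genes of the lists were named after their values were seen. A few regions that this rule names are not reported here. The planned motif count around every summit needs a genome and was not run, and sequences were taken from start windows instead. The regions and lists were chosen with earlier results of these data known. Scripts ran in Python 3.11.15 with scipy 1.17.1, pandas 2.3.3, numpy 2.4.6 and, for figures, matplotlib 3.10.9. Alternatives changed the peak threshold, the distance limits, the mark files, the gene set and the neighbour window.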

Additional observations from a re-analysis of the deposited data

How the results depend on the processing

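No paired analysis was possible because the peaks were called once on the pooled replicates. With −log10 q of at least 10, 963 regions were left, with a median fold of 9.22, H3K9ac at 38.5%, H3K4me3 at 11.9% and 61 list genes, where fewer peaks enter and the weak ones are left out. The cause of the lower mark shares was not tested. Against all peaks, the median was 1.09 times in fold and 1 time in pileup. Asking for both region files lowered H3K4me1 to 80.7% and H3K4me3 to 7.97%. Counting all RefSeq genes raised the share in gene bodies to 73.0%. Another summit lay within 5 kb of 27.7% and within 20 kb of 54.2%. The list genes fell to 52 with limits of 20 to 40 kb, where 0% of start windows held a T-box motif (interval up to 70.8%, from very few windows), and to 46 by the matched start, which changes both the regions that enter and the gene assigned. Lists whose share lay above that of all protein-coding genes, intervals left aside, numbered 15 of 18 under every setting except the matched start (14). The medians, mark shares, side of the start and neighbours with limits of 20 to 40 kb, and the number of regions from 5 kb (2456), stayed within the interval or 1.5 times of the values given. Motif shares in fixed windows around all summits and over whole peaks were not run. Depth limits single regions: at the median pileup of 22, order between neighbours in fold cannot be read.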
